A study of Mus musculus with 4 samples.

Results

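The genes described here are 9 transcription factor genes of the macrophage lineage: Spi1, Irf8, Irf5, Maf, Runx1, Runx3, Id2, Bhlhe40 and Mitf. They were chosen by name, with all of their probe sets that the platform annotation pairs with 1 gene symbol. That gave 18 probe sets for the 9 genes, of 20380 such probe sets for 12393 genes on the array. Tumour-associated macrophages had been sorted by flow cytometry from the gastrointestinal stromal tumours (GIST) of mice. Mice of the imatinib group drank water with the drug (600 mg/L) over 2 weeks, and the vehicle group served as its control. Imatinib inhibits the Kit, Pdgfr, Abl and Csf1r kinases. All mice carried GIST, a sarcoma of the gut wall usually driven by an active Kit receptor. The labels used here give neither their allele, strain and age nor the markers of the sort. Each group had 8 mice whose sorted cells were pooled, and 2 Affymetrix arrays per group were made from 200 ng of RNA each. The titles call the arrays of a group biological replicates, while the design text describes duplicates of a pool. Nothing in the sources used here shows that the arrays of a group came from separate cells, so each p-value covers array-to-array spread that may be technical.

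PU.1, the product of Spi1, is an ETS factor that opens the enhancers of macrophage genes and without which macrophages do not form. IRF8 binds beside PU.1 and sets the monocyte fate, and IRF5 drives inflammatory cytokine genes downstream of Toll-like receptors. MAF holds macrophages in a quiescent state, RUNX1 switches Spi1 on in blood progenitors, and RUNX3 is best known in cytotoxic T cells and dendritic cells. ID2 has no DNA-binding region of its own and blocks E proteins by pairing with them. BHLHE40 is an E-box repressor that restrains Il10, and MITF drives lysosomal and osteoclast genes together with its relatives TFE3, TFEB and TFEC.

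Of the 9 genes, Id2 and Mitf were higher with imatinib and 5 others did not pass the test. Maf and Runx3 lay below the signal filter. Id2 rose 1.83-fold and Mitf 1.36-fold. The promoter sequences of these 2 genes are shown because they are the members that passed the test. Each is the stretch of 250 bases upstream of an annotated start, in RefSeq's build GRCm38.p6, 5′ to 3′ on the gene's strand. Id2 has 1 start in that table, at which the stretch is chr12:25096093-25096342 on the minus strand. Mitf has 3 starts on the plus strand, at chr6:97806808-97807057, chr6:97929567-97929816 and chr6:97991533-97991782. Capitals mark matches, on either strand, to 5 motifs: GAGGAA (PU.1), the IRF element (a pair of GAAA with any 2 bases between them), TGTGGT (RUNX), CACGTG (the E-box of BHLHE40 and MITF) and TGCTGA (the core of the MAF element). GAGGAA can share its last bases with the IRF element.
Id2: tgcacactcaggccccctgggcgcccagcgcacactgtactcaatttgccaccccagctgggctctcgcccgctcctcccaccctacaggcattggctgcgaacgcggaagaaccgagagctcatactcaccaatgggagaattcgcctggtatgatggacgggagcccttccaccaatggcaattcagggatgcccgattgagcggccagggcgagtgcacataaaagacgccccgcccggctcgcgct
Mitf start 1: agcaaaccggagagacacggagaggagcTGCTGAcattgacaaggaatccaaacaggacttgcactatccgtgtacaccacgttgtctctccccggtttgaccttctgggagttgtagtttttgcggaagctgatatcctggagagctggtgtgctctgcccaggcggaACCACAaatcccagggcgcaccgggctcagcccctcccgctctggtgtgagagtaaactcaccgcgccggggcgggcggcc
Mitf start 2: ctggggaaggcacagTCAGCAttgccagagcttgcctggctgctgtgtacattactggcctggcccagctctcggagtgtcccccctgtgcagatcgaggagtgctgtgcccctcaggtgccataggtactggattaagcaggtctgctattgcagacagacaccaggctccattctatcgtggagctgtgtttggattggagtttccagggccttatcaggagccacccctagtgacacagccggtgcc
Mitf start 3: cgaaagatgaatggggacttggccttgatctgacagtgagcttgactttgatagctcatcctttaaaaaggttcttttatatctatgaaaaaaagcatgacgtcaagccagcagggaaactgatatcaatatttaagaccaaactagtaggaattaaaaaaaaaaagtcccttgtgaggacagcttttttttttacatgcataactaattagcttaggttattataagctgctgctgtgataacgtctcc
The Id2 stretch held none of these letters. The first Mitf stretch held 1 TGTGGT match, on the opposite strand and 81 to 76 bases before the start, and 1 TGCTGA match at 222 to 217 bases. The second held 1 TGCTGA match on the opposite strand, 235 to 230 bases before the start. The third held none. Over the same 250 bases of 32817 RefSeq starts, TGTGGT was found in 14.04%, TGCTGA in 16.09%, GAGGAA in 23.25%, CACGTG in 6.02% and the IRF element in 2.97%. The GC content was 62.8% for Id2 and 59.6%, 58.0% and 36.0% for the Mitf starts in the order printed, beside a median of 52.4% over all starts. Of the 9 genes, 6 had an entry in the promoter table. Neither a motif match nor its absence shows binding.

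The files hold MAS5 signals, a background-corrected intensity on a linear scale, and each value below is such a signal unless called a log2 difference. Differences are imatinib minus vehicle of log2(signal + 32), which understates the change of dim genes, and a lone value in parentheses after a gene name is such a difference. A gene was taken at its brightest probe set and tested where the mean signal reached the 40th percentile of all probe sets (82.9). Of 8156 genes tested with limma, 15.6% were called at a Benjamini-Hochberg adjusted p below 0.05, 6.74% as higher and 8.85% as lower. Across single probe sets, of which 13576 were tested, 6.2% were called higher and 7.38% lower. Of the 9 genes 7 were tested, with 2 called higher and 0 lower (limma, 0 lower at an unadjusted p under 0.05). Of their 18 probe sets 16 were above the filter, with 3 called higher and 0 lower (limma, 0 lower at an unadjusted p under 0.05). The arrays of the groups did not overlap for 5 of the 7 tested genes and 11 of the 16 probe sets, beside 56.2% of all tested genes and 54.7% of all tested probe sets.

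The arrays differed between the groups in more than these genes. Gapdh control probe sets at the 3′ and 5′ ends of the transcript, which track RNA quality, gave 3′/5′ ratios of 2.34 and 2.09 with imatinib and 2.91 and 2.76 with vehicle. All 18 macrophage markers were tested and 13 were higher, with a median log2 difference of 0.38. Their summed signal was 259426 and 250824 with imatinib and 218557 and 217746 with vehicle. All 13 epithelial markers were lower, with a median of -2.33 and summed signals of 7428 and 7288 with imatinib against 37535 and 38077 with vehicle. Krt19 and Dsp, a keratin and a desmosomal gene, differed most (log2 differences -2.89 and -2.65). Of 10 fibroblast markers 7 were lower, with a median of -0.996 and summed signals of 3960 and 4380 with imatinib against 7939 and 8569 with vehicle. Of the other lists, 3 of 5 monocyte, 1 of 3 neutrophil and 2 of 7 B and plasma cell markers were higher, 1 of those 7 and 1 of 3 smooth muscle markers were lower, and none of 5 endothelial markers was called (limma, 0 at an unadjusted p under 0.05). The other 2 monocyte markers, Ccr2 (-0.21) and Plac8 (-0.27), went the other way and were not called (limma, 1 lower at an unadjusted p under 0.05). Plac8 was called lower under quantile normalization (-0.30). The lower B and plasma cell marker, Ighm (-0.62), was called higher without probe sets that may match several transcripts (0.84), and the smooth muscle marker Acta2 (-0.82) was not called when probe sets were averaged (-0.63). In such bulk samples fewer cells of a type and less RNA per cell cannot be told apart. The part of these shifts in the results below was not tested. To show their reach, the differences are also given on a scale on which the mean of the macrophage markers is equal on all arrays. That macrophage-marker scale lowers each log2 difference by 0.41, and setting the array medians equal raises each by 0.16. On the macrophage-marker scale 4520 of the 8156 tested genes were called lower and 125 higher, so a lower call there is common.

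Id2 was the member with the clearest change. Its brightest probe set, 1435176_a_at, had signals of 8155 and 8433 on the imatinib arrays and 4648 and 4374 on the vehicle arrays. The groups lay far apart relative to the spread within each (8294 ± 196 with imatinib and 4511 ± 193 with vehicle, SD, n = 2 each). The log2 difference was 0.87 ± 0.08 (SE, limma adjusted p = 2.4e-05), and it stayed higher on the macrophage-marker scale (0.47). A second probe set, 1422537_a_at, had signals of 988.7 and 841.9 with imatinib and 351.1 and 386.4 with vehicle. It differed by 1.24 ± 0.13 on the log2 scale (SE, limma adjusted p = 0.00013), or 0.83 on the macrophage-marker scale. The third, 1453596_at, pointed the same way with signals of 196.5 and 232.5 with imatinib against 155.8 and 126.1 with vehicle, but did not pass the test (log2 difference 0.51, limma adjusted p = 0.14). The suffix of the first 2 marks probe sets that can match several transcripts of a gene. Represented by the third probe set alone, Id2 was not called (limma adjusted p = 0.12). NK cells and dendritic cells need ID2 as well. Of the NK and cytotoxic markers 3 of 7 were higher (median 0.31), as were 3 of 7 dendritic cell markers (median 0.69), and their part in the Id2 result was not tested.

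**Figure D1:**
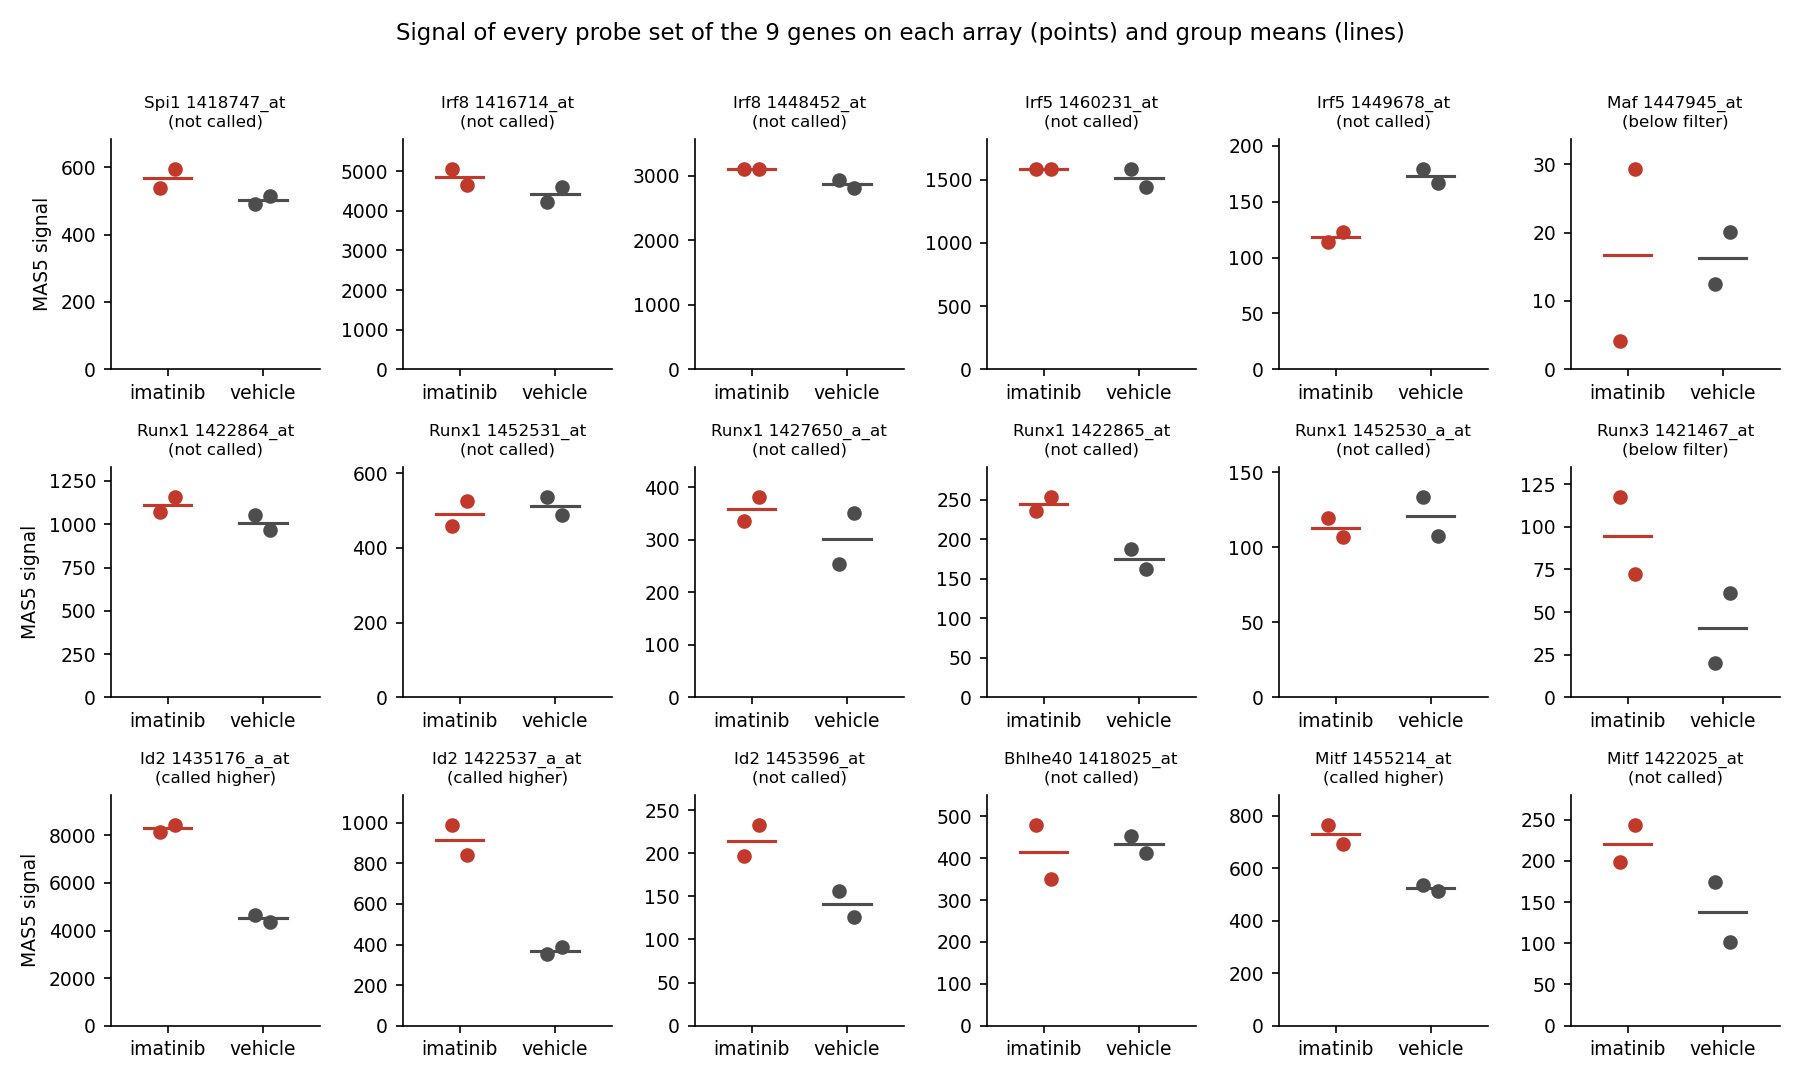
MAS5 signal (linear axis from 0, own scale in each panel) of all 18 probe sets on each of the 2 imatinib and 2 vehicle arrays (points) with group means (lines). All 3 Id2 probe sets and both Mitf probe sets have each imatinib array above each vehicle array. Groups did not overlap, in either direction, for 54.7% of all tested probe sets. The 2 panels marked as below the filter, Maf and Runx3, were not tested.

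Id1 and Id3, the tested Id relatives of Id2, moved the opposite way. Id1, also an inhibitor of E proteins, had signals of 210.3 and 219.6 with imatinib and 396.0 and 462.1 with vehicle, a log2 difference of -0.90 ± 0.15 (SE, limma adjusted p = 0.0026). Id3 had 123.2 and 203.3 with imatinib and 310.4 and 265.0 with vehicle, a difference of -0.74 ± 0.22 (limma adjusted p = 0.047, and not called under quantile normalization at -0.63). Id3 also lost its call without imatinib array 1 (-0.44), vehicle array 1 (-0.64) or vehicle array 2 (-0.84). Nor was Id3 called with a pseudocount of 1, with no filter, with probe sets averaged, with no variance trend or with the replicate number as a block. The groups did not overlap for Id1, Id2 and Id3, as for 56.2% of all tested genes. Id2 was higher and Id1 and Id3 lower, and the same directions held with equal array medians and on the macrophage-marker scale. Id4 lay below the filter. The E proteins that Id factors bind were tested as 3 genes, and none passed (limma, 0 at an unadjusted p under 0.05). Tcf12 had a log2 difference of -0.01, Tcf3 of 0.04 and Tcf4 of 0.14, and Tcf12 was at 0.15 with array medians set equal. On the macrophage-marker scale Tcf12 (-0.41) and Tcf4 (-0.27) were called lower and Tcf3 was at -0.36 and not called. Epithelial markers, whose cells can also carry Id1 and Id3 transcripts, had a median of -2.33 on the same arrays, and their part in the fall was not tested.

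Mitf was the other member called. Its brightest probe set, 1455214_at, had signals of 764.2 and 693.7 with imatinib and 537.2 and 514.3 with vehicle. The groups did not overlap, as for 56.2% of all tested genes, and the log2 difference was 0.45 ± 0.12 (SE, limma adjusted p = 0.028). The second probe set, 1422025_at, had 198.5 and 243.5 with imatinib and 174.0 and 101.6 with vehicle, a log2 difference of 0.60 ± 0.24 (SE, limma adjusted p = 0.14). Mitf kept its positive sign in all 16 alternative settings and passed in 9 of them. It was 0.04 on the macrophage-marker scale and did not pass there (limma adjusted p = 0.77), nor without imatinib array 1 (0.38), without vehicle array 1 (0.48) or without vehicle array 2 (0.42). In the fit over probe sets 1455214_at lost its call whichever array was left out (0.38 to 0.51). Nor did Mitf pass with no filter, with probe sets averaged (0.53) or with no variance trend. Its relatives Tfec and Tfeb did not pass. Tfec, which is expressed mainly in macrophages, had signals of 250.9 and 260.0 with imatinib against 144.1 and 189.1 with vehicle (log2 difference 0.54, limma adjusted p = 0.083). Tfeb, a regulator of lysosome formation, had 245.2 and 222.7 with imatinib against 181.4 and 210.4 with vehicle (log2 difference 0.22, or -0.18 on the macrophage-marker scale). With array medians set equal Tfec was called higher (0.70).

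Mast cells also depend on MITF, so their markers were examined beside it. Of 7 mast cell markers only Gata2 and Cpa3 passed the filter, and neither was called (limma, 0 at an unadjusted p under 0.05; log2 differences 0.02 and -0.02). The other 5 (Mcpt4, Tpsb2, Fcer1a, Ms4a2 and Hdc) had signals of at most 43.4 with imatinib and 53.3 with vehicle. Of 6 tested target genes of MITF and its relatives, 1 was higher and 1 lower, with a median log2 difference of 0.08. Acp5, the tartrate-resistant acid phosphatase of osteoclasts and macrophages, had signals of 3202 and 3242 with imatinib and 2504 and 2721 with vehicle (log2 difference 0.30, limma adjusted p = 0.035, -0.11 on the macrophage-marker scale, and not called under quantile normalization). It was also not called without imatinib array 1 (0.31), imatinib array 2 (0.29) or vehicle array 1 (0.24). Kit, a MITF target in mast cells and the receptor that drives GIST, fell to 620.8 and 689.9 with imatinib, against 1103 and 978.5 with vehicle (log2 difference -0.64, limma adjusted p = 0.0034). The probe set that read Kit may match several transcripts. Without such probe sets 0 target genes were called lower, so the call of Kit rests on that probe set. Of 5 tested markers of GIST and interstitial cells of Cajal, 3 were lower: Kit itself, Edn3 (-0.91) and Elovl6 (-0.63). Edn3 (-0.75) and Elovl6 (-0.54) were not called under quantile normalization, nor was Elovl6 with array medians set equal (-0.47). Edn3 also lost its call with no filter or with probe sets averaged (-0.57). The same held without vehicle array 1 (-0.83), vehicle array 2 (-0.99) or imatinib array 2 (-0.76). Ano1 (-0.25) and Prkcq (0.44) were not called. The part of such cells in the Kit value was not tested. The osteoclast protease gene Ctsk had 63.4 and 52.9 with imatinib and 84.3 and 148.7 with vehicle and was not called (-0.69).

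**Figure D2:**
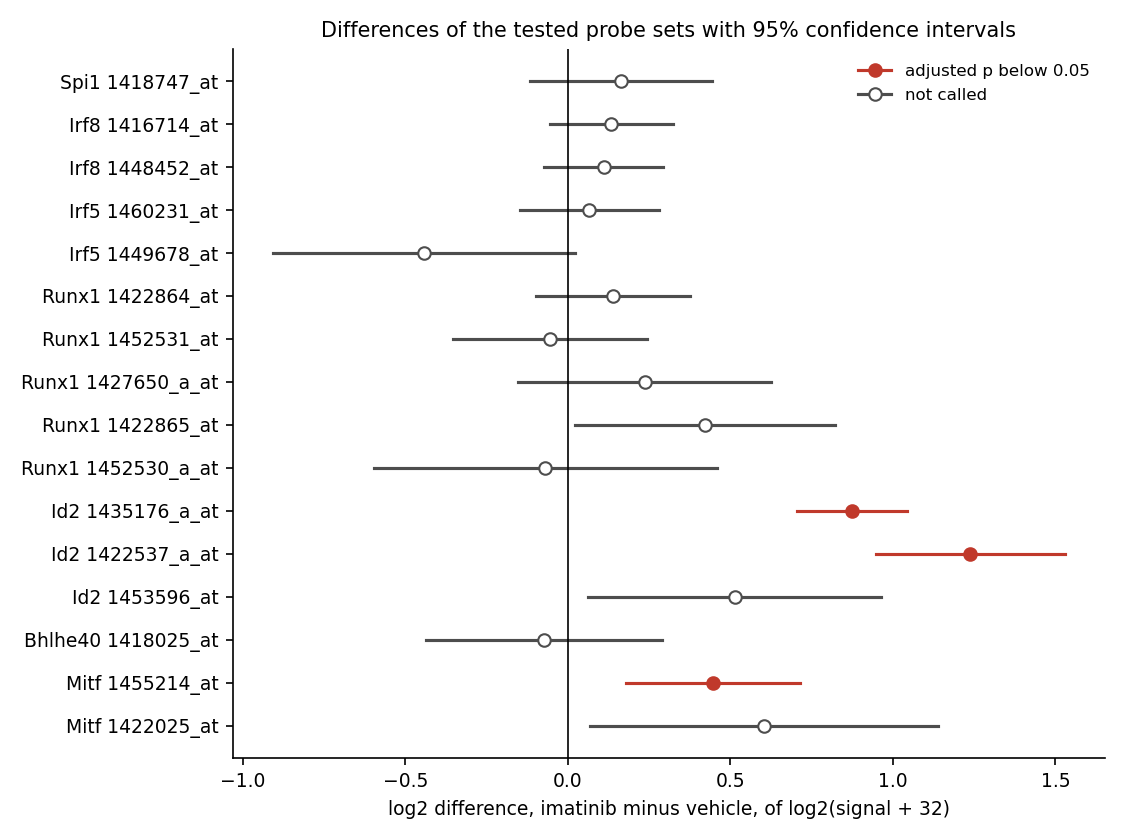
Log2 difference, imatinib minus vehicle, of the 16 probe sets above the signal filter (points), with 95% confidence intervals from limma (bars); filled points have an adjusted p below 0.05. The 3 filled points are 2 Id2 probe sets at 0.87 and 1.24 and 1 Mitf probe set at 0.45, and the Spi1, Irf8 and Bhlhe40 intervals all span 0.

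The factors that define the lineage did not pass the test. Spi1 had signals of 539.4 and 595.8 with imatinib and 492.1 and 513.9 with vehicle. The groups did not overlap, as for 56.2% of all tested genes. The log2 difference was 0.16 with a 95% interval of -0.11 to 0.44 (limma adjusted p = 0.44), and -0.24 on the macrophage-marker scale. A larger increase than 0.44 or a decrease below -0.11 thus lay outside the interval on the deposited scale, which covers the spread between arrays only.

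The closest relatives of Spi1 in the ETS family differed among themselves. Spic, which specifies iron-recycling macrophages, had signals of 488.0 and 499.1 with imatinib and 84.1 and 166.7 with vehicle. It differed by 1.79 ± 0.23 on the log2 scale (SE, limma adjusted p = 0.00042), or 1.38 on the macrophage-marker scale. The probe set that read Spic may match several transcripts. Without such probe sets 4 genes of the family lists were higher, beside 6 with them. Spib, a factor of B cells and plasmacytoid dendritic cells, was not called (-0.05, or 0.11 with array medians set equal). Of 14 tested ETS genes other than Spi1, 2 were higher and 2 lower, with a median of -0.07 beside -0.02 over all tested genes. Ets2 rose to 1545 and 1330 with imatinib, against 1006 and 1055 with vehicle (0.46, limma adjusted p = 0.014, and 0.06 on the macrophage-marker scale, where it was not called). Nor was it called without imatinib array 1 (0.36) or vehicle array 1 (0.43). Elf3, an epithelial factor, fell to 257.8 and 308.0 with imatinib, against 765.9 and 715.7 with vehicle (-1.30, limma adjusted p = 1.0e-04), beside epithelial markers at -2.33. Ets1, abundant in lymphocytes and endothelium, was lower at its brightest probe set, with 1363 and 1348 with imatinib against 1995 and 1769 with vehicle (-0.46, limma adjusted p = 0.0083). That probe set may match several transcripts. Without such probe sets Ets1 differed by less than 0.01 and was not called, nor was it with array medians set equal (-0.30) or without vehicle array 1 (-0.38).

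Target genes of PU.1 were mostly higher although Spi1 itself was not called. Of 19 tested, 13 were higher and 0 lower, a share of calls to be read against 6.74% of all tested genes, with a median log2 difference of 0.51 beside -0.02. Of the 20 listed genes 9 are also among the macrophage markers, so the lists are not separate evidence. Mrc1, the mannose receptor, had 10755 and 9889 with imatinib against 4014 and 4120 with vehicle (1.34, limma adjusted p = 1.3e-06). Lyz2 (0.86), Il1b (0.71) and the integrin gene Itgam (0.97, at signals of 157.1 and 201.7 with imatinib against 88.3 and 64.3 with vehicle) rose as well, Itgam losing its call without imatinib array 2 (0.81) or vehicle array 2 (0.81) and on the macrophage-marker scale (0.56). The vehicle mean of Itgam (76.3) lay below the filter signal of 82.9. Csf1r, the textbook PU.1 target and receptor for the macrophage growth factor, was not called (0.12). Its signals were 31382 and 29178 with imatinib against 27103 and 28656 with vehicle, and it was called lower on the macrophage-marker scale (-0.29). Csf1r, Itgam and Lyz2 are themselves among the markers whose mean sets that scale. On that scale 5 of the 19 were higher and 3 lower, with a median of 0.10.

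Irf8 differed by little on either probe set. Probe set 1416714_at had 5065 and 4646 with imatinib and 4233 and 4612 with vehicle, and 1448452_at had 3099 and 3109 with imatinib against 2935 and 2812 with vehicle. The log2 differences were 0.13 (95% interval -0.05 to 0.32, limma adjusted p = 0.34) and 0.11 (-0.07 to 0.29). On the macrophage-marker scale both were called lower, at -0.27 and -0.30, where 4520 of the 8156 tested genes were called lower. Dendritic cells use IRF8 as well. Of 7 tested dendritic cell markers 3 were higher, among them Cd209a (1.48) and Flt3 (1.14, not called without vehicle array 1 at 0.82 or on the macrophage-marker scale at 0.74), and their summed signal was 1667 and 1858 with imatinib against 1041 and 1040 with vehicle. The vehicle mean of Flt3 (48.5) lay below the filter signal of 82.9. Clec9a and Siglech were not analysed here, and Zbtb46 lay below the filter. Xcr1, which marks the conventional dendritic cells that need IRF8, was not called (-0.00). Its signals were 80.9 and 153.7 with imatinib against 104.3 and 122.2 with vehicle. Kmo of the same list was called higher (0.69), but not on the macrophage-marker scale (0.28). Batf3, also of that list, had 518.6 and 608.0 with imatinib against 435.1 and 373.3 with vehicle. It did not pass (0.45, limma adjusted p = 0.056), but was called higher with array medians set equal (0.61). On the macrophage-marker scale Batf3 was at 0.04 and not called. No marker of the list was called lower.

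The probe sets of Irf5 disagreed. The brightest, 1460231_at, had 1588 and 1582 with imatinib and 1583 and 1444 with vehicle, overlapping groups with a log2 difference of 0.07 (95% interval -0.14 to 0.27, limma adjusted p = 0.70). Probe set 1449678_at had 114.3 and 123.3 with imatinib and 179.5 and 166.4 with vehicle, a difference of -0.44 (95% interval -0.91 to 0.02, limma adjusted p = 0.21). Averaged over both, the Irf5 log2 difference was -0.19 and was not called (limma adjusted p = 0.31). On the macrophage-marker scale both were called lower, at -0.34 and -0.85, where 4520 of the 8156 tested genes were called lower.

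Of 6 other interferon regulatory factors 1 was higher and 0 lower (limma, 0 lower at an unadjusted p under 0.05), with a median of 0.04. Irf1, an interferon-gamma-induced factor, had 2889 and 2766 with imatinib and 2281 and 2364 with vehicle (0.28, limma adjusted p = 0.045, not called under quantile normalization and -0.13 on the macrophage-marker scale). It was not called without any one of the 4 arrays (0.25 to 0.31). Of 11 tested target genes of IRF5 and IRF8, 3 were higher and 0 lower (limma, 0 lower at an unadjusted p under 0.05), with a median of 0.34 (-0.07 when macrophage markers were set equal). These were Cybb, the catalytic subunit of the phagocyte oxidase (0.66), Ciita, the master regulator of class II antigen presentation (0.58), and the chemokine gene Ccl5 (0.34, or -0.07 on the macrophage-marker scale). On that scale Cybb (0.25) and Ciita (0.17) were not called either, nor was Ciita without probe sets that may match several transcripts (0.33). Ccl5 was not called without imatinib array 1 (0.26), vehicle array 1 (0.33) or vehicle array 2 (0.35). The cytokine genes through which IRF5 is best known were not called on the deposited scale: Tnf (-0.10, or 0.06 with array medians set equal), Il6 (0.56) and Il12b (0.37, or -0.04 on the macrophage-marker scale). Tnf was called lower on the macrophage-marker scale (-0.51). Il12a, Il23a and Ifnb1 lay below the filter.

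**Figure D3:**
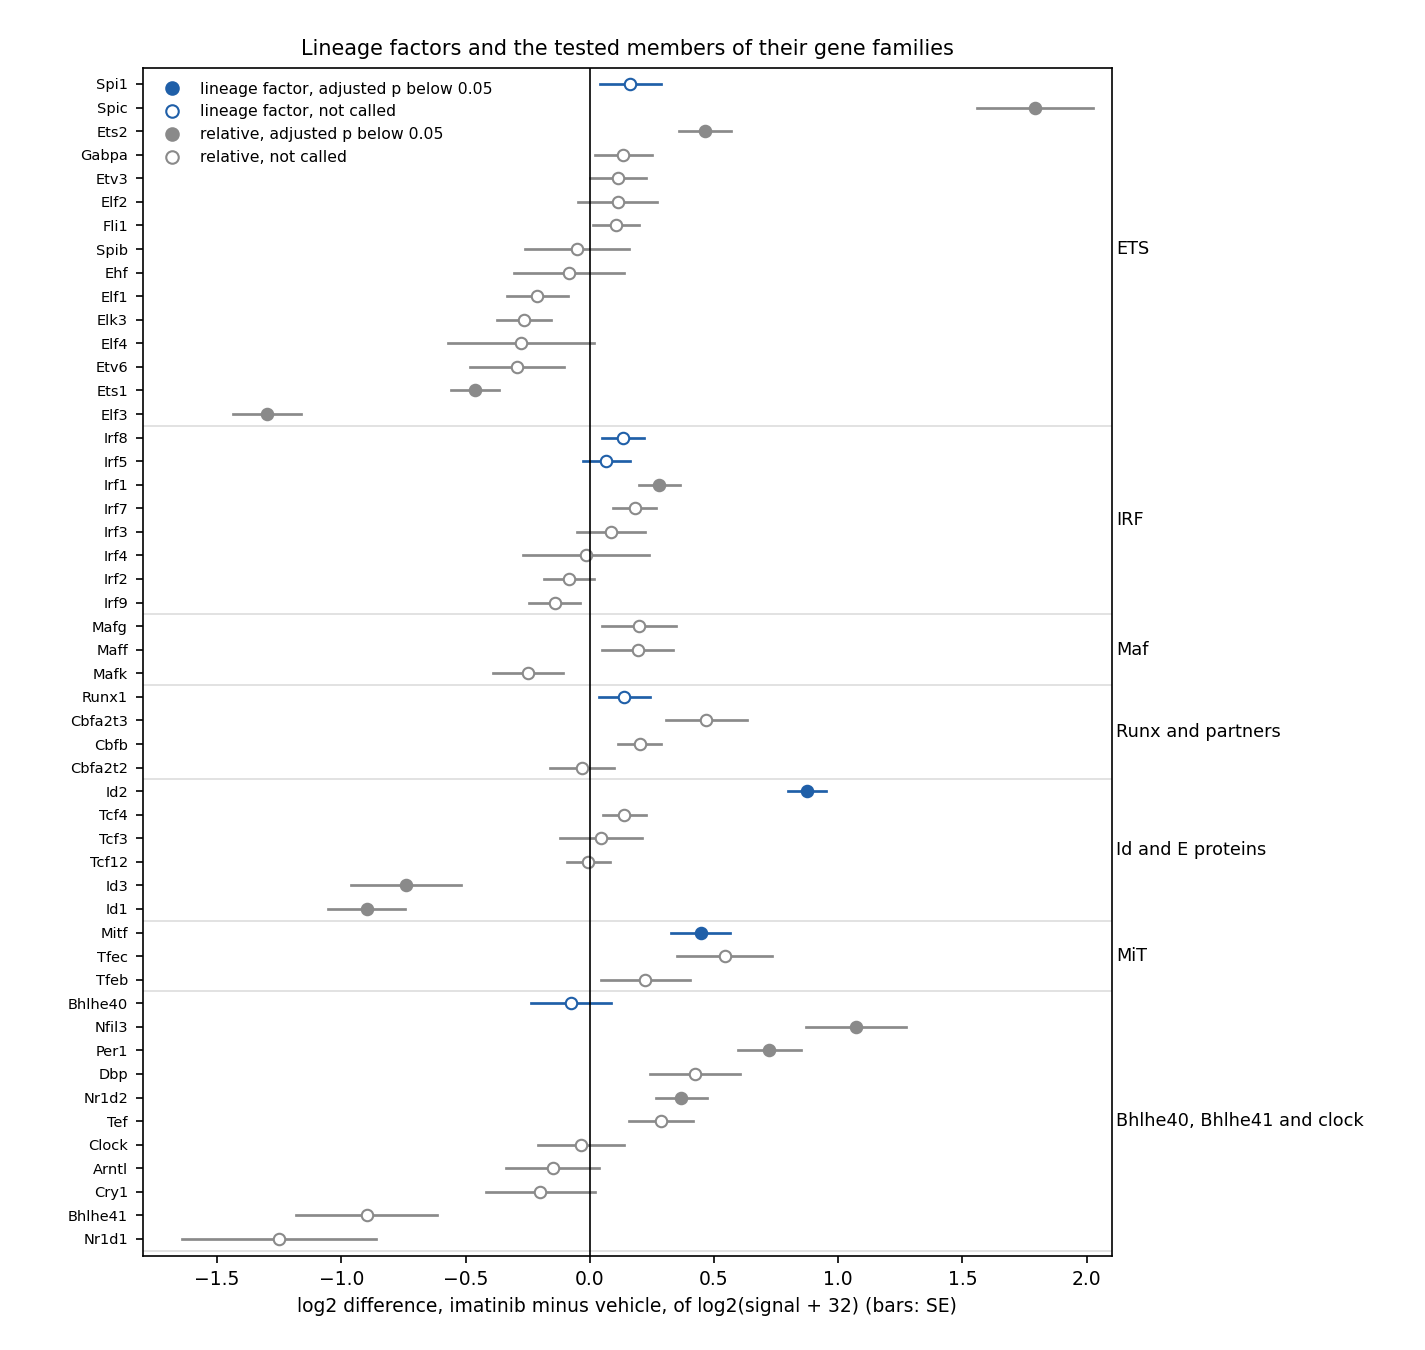
Log2 difference, imatinib minus vehicle, with SE (bars) for the 7 tested lineage factors (blue) and the tested members of their gene families (grey), by family from top to bottom; filled points have an adjusted p below 0.05. Spic at 1.79 stands far above Spi1 at 0.16, and Id2 at 0.87 lies opposite to Id1 at -0.90 and Id3 at -0.74. Spic was read by a probe set that may match several transcripts.

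Runx1 was read by 5 probe sets, which gave a mixed picture. The brightest, 1422864_at, had 1070 and 1157 with imatinib and 1052 and 964.2 with vehicle (log2 difference 0.14, 95% interval -0.09 to 0.37, limma adjusted p = 0.43). Probe set 1422865_at, from the same accession, had 236.0 and 253.3 with imatinib against 187.1 and 162.4 with vehicle (0.42, limma adjusted p = 0.17), and was called higher only where array medians were set equal (0.58). The others overlapped between groups, with differences of 0.24 for 1427650_a_at, -0.06 for 1452531_at and -0.07 for 1452530_a_at. The last 2 were positive with array medians set equal. On the macrophage-marker scale the gene Runx1, read by its brightest probe set, was called lower (-0.27, limma adjusted p = 0.049). In the fit over probe sets 1452531_at was called lower there (-0.46). Of the 8156 tested genes 4520 were called lower on that scale.

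Runx3 was listed on 1 probe set, with 117.5 and 72.2 with imatinib and 20.3 and 61.4 with vehicle. Its groups did not overlap, as for 54.7% of all tested probe sets, and its mean lay below the filter. Without the filter the log2 difference was 0.84 ± 0.38 (SE, limma adjusted p = 0.32). Cytotoxic lymphocytes carry Runx3. Of 7 tested NK and cytotoxic markers, Gzma (0.54), Klrd1 (0.46, not called without imatinib array 1 at 0.43, imatinib array 2 at 0.49 or vehicle array 2 at 0.40) and Ccl5 (0.34) were higher, and the summed signal of the 7 was 5454 and 5193 with imatinib against 4141 and 4133 with vehicle. Ccl5, also listed above as an IRF5 and IRF8 target, gave 2823 and 2523 of that sum with imatinib and 2080 and 2115 with vehicle. Nkg7 (0.31), Gzmb (0.23), Eomes (-0.08) and Prf1 (-0.17) were not called, and Ncr1 lay below the filter. The 3 higher markers lost their calls on the macrophage-marker scale (Gzma 0.13, Klrd1 0.05, Ccl5 -0.07). Of 8 T cell markers none was called (limma, 0 at an unadjusted p under 0.05), with a median of -0.10, or 0.06 with array medians set equal.

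Cbfb, the partner that stabilises all RUNX proteins on DNA, had 2025 and 2118 with imatinib and 1775 and 1822 with vehicle and did not pass (0.20, limma adjusted p = 0.16, and -0.21 on the macrophage-marker scale). The corepressor gene Cbfa2t2 was at -0.03 (0.13 with array medians set equal, and called lower on the macrophage-marker scale at -0.44). Its relative Cbfa2t3 had 384.8 and 325.2 with imatinib and 229.5 and 264.9 with vehicle and did not pass (0.47, limma adjusted p = 0.079), but was called higher with array medians set equal (0.63) and was at 0.06 on the macrophage-marker scale. Of the 3 tested Runx partners none was called (limma, 2 higher at an unadjusted p under 0.05), and Runx2 was not analysed here. Of 8 tested RUNX target genes 2 were higher and 0 lower (limma, 0 lower at an unadjusted p under 0.05). Cd4, whose silencing in cytotoxic T cells needs RUNX3, rose to 425.7 and 299.7 with imatinib, against 56.2 and 41.3 with vehicle (2.28, limma adjusted p = 9.7e-05). Its vehicle mean (48.8) lay below the filter signal of 82.9, so Cd4 was tested only through its imatinib arrays. The scavenger receptor gene Cd36 rose to 1230 and 1324 with imatinib, against 866.8 and 846.9 with vehicle (0.56, or 0.15 on the macrophage-marker scale, where it was not called).

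Maf was listed on 1 probe set whose signals, 4.09 and 29.3 with imatinib and 12.5 and 20.1 with vehicle, lay below the filter and overlapped. Maf was therefore not tested. Its relatives Maff (0.19), Mafg (0.20) and Mafk (-0.25) were not called (limma, 0 at an unadjusted p under 0.05), and on the macrophage-marker scale the first 2 were negative and Mafk was called lower (-0.66, limma adjusted p = 0.0042). Of 6 tested MAF target genes, Il10 and C1qc were higher and 0 were lower (limma, 0 lower at an unadjusted p under 0.05). Il10, an anti-inflammatory cytokine gene, had 437.0 and 428.3 with imatinib and 228.4 and 253.6 with vehicle (0.77, limma adjusted p = 0.0049, and 0.36 on the macrophage-marker scale, where it was not called). The complement gene C1qc had 13288 and 12642 with imatinib and 10575 and 11123 with vehicle (0.26, limma adjusted p = 0.037, not called under quantile normalization at 0.09 and -0.15 on the macrophage-marker scale). It lost its call without imatinib array 1 (0.22), vehicle array 1 (0.22) or vehicle array 2 (0.29). Its partner chains C1qa (0.05) and C1qb (-0.09, or 0.08 with array medians set equal) were not called. Both were called lower on the macrophage-marker scale (-0.36 and -0.49). C1qa, C1qb and C1qc are among the markers whose mean sets that scale, so a marker that rose less than this mean turns negative there.

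Bhlhe40, which restrains Il10, had 478.8 and 349.6 with imatinib and 453.8 and 413.0 with vehicle. The imatinib arrays lay on both sides of the vehicle arrays, and the log2 difference was -0.07 (95% interval -0.43 to 0.28, limma adjusted p = 0.82), or 0.09 with array medians set equal. On the macrophage-marker scale Bhlhe40 was called lower (-0.48, limma adjusted p = 0.029), as were 4520 of the 8156 tested genes. Bhlhe41, its closest relative, had 58.4 and 70.2 with imatinib and 186.8 and 114.6 with vehicle and narrowly missed the threshold (-0.90, limma adjusted p = 0.057). BHLHE40 also acts in the circadian clock. Of 10 tested genes that comprise Bhlhe41 and clock genes, 3 were higher and 0 lower (limma, 2 lower at an unadjusted p under 0.05, Bhlhe41 and Nr1d1). Nr1d1 had 23.5 and 110.5 with imatinib and 202.7 and 159.3 with vehicle and narrowly missed the threshold (-1.25, limma adjusted p = 0.055). It was called lower with array medians set equal (-1.09) and on the macrophage-marker scale (-1.66). Nfil3 rose to 274.6 and 275.9 with imatinib, against 132.8 and 97.5 with vehicle (1.07, limma adjusted p = 0.0045, and 0.66 on the macrophage-marker scale). Per1 rose to 704.2 and 627.5 with imatinib, against 402.6 and 378.1 with vehicle (0.72, or 0.31 on the macrophage-marker scale, where it was not called). Nr1d2 rose to 1314 and 1307 with imatinib, against 948.3 and 1071 with vehicle (0.37, or -0.04 on the macrophage-marker scale), but averaged over its probe sets it was at 0.03 and was not called. Nor was it called without imatinib array 1 (0.36), imatinib array 2 (0.37) or vehicle array 1 (0.28). The time of day at which the mice were killed is not given in the sources used here.

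**Figure D4:**
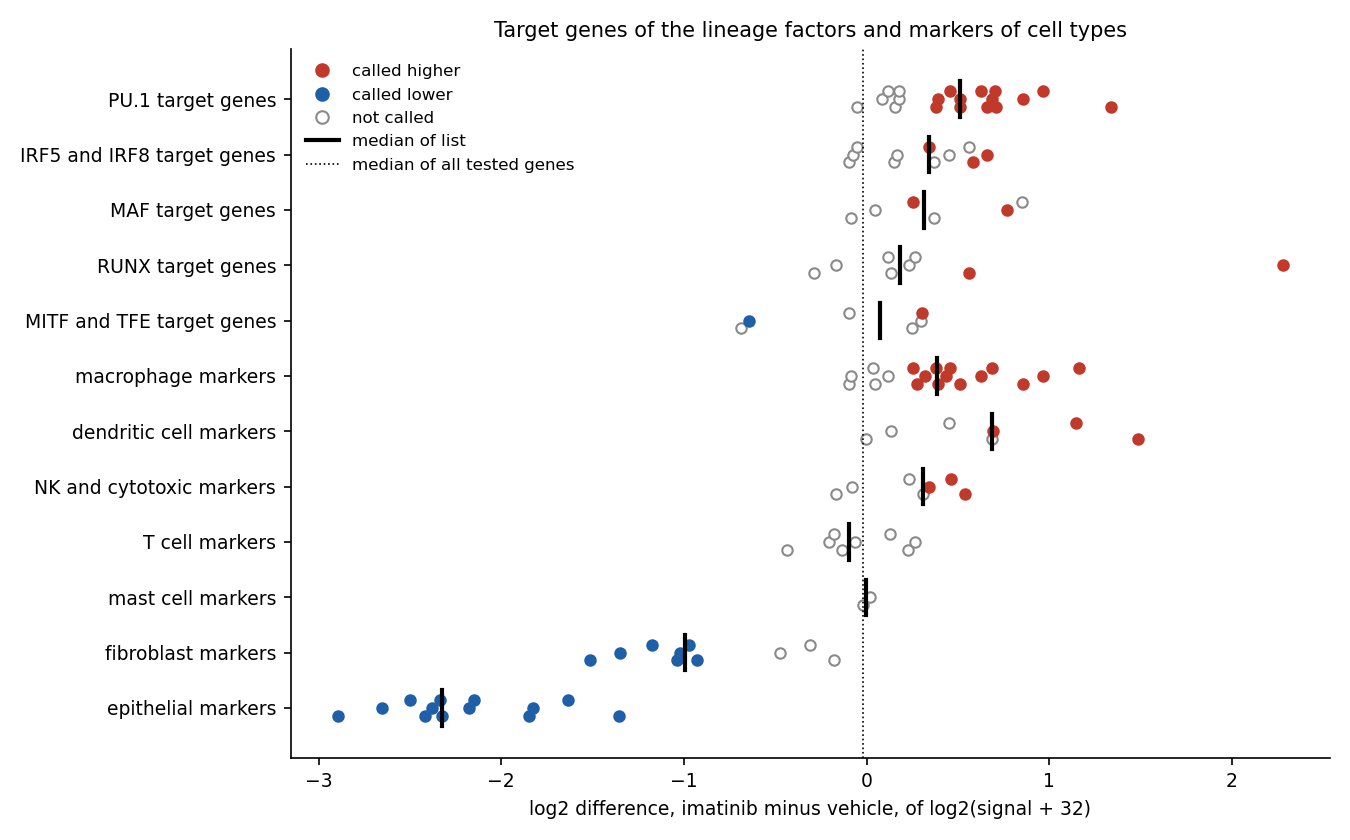
Log2 difference, imatinib minus vehicle, of each tested gene (points) in the lists of target genes and in 7 of the marker lists, called higher (red), called lower (blue) or not called (open), with the median of each list (bars) and of all tested genes (dotted line, -0.02). The PU.1 targets lie mostly to the right of 0 (median 0.51), as do the macrophage markers (0.38), while all 13 epithelial markers lie below -1.

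The genes whose profiles over the 4 arrays were closest to those of the called members were found by the Euclidean distance between gene-centred log2(signal + 32) values. For Id2 they were Igf1 (distance 0.061, log2 difference 0.83) and Nrros (0.076, 0.91). For Mitf they were Mbnl1 (distance 0.030, log2 difference 0.43) and Dusp1 (0.040, 0.45). With 4 arrays in 2 groups such closeness mainly restates a like difference between the groups.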

How the data were processed

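RNA of macrophage pools was measured on 2 imatinib and 2 vehicle arrays. The deposited values are signal intensities that the authors computed; the submitters' processing notes name MAS5 and Affymetrix Expression Console, with no settings. The 2% trimmed mean was 500.3 on each array, so a change in bright transcripts shifts all others. Of 22690 probe sets, 64 controls were left out; of the others 20380 had 1 gene symbol, 691 several and 1555 none. Symbols matched RefSeq by Entrez ID for 20351, with 0 updated. No genome build is named for the files.

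Differences of log2(signal + 32) were tested with limma (R 4.3.3, limma 3.58.1, statmod 1.5.0; mean-variance trend, two-sided, 8.39 prior and 2 residual degrees of freedom), adjusted over all tested genes or probe sets. The procedure was run on simulated data with independent noise for each gene. Those data held no array-wide shift, so the run does not cover the shifts between groups described above. Figures and promoters used Python 3.11.15, pandas 2.3.3 and matplotlib 3.10.9. Precision is limited by having 4 arrays. The 9 genes, 7 family, 5 target and 13 marker lists, the macrophage-marker scale and the tests were chosen with earlier results of these data known. Lists were described, not tested as sets. The genes named are the 9, the called genes of each list by size (up to 4, for marker lists 2; the brightest where none was called), all genes of short family lists and the 2 closest profiles. Other genes, such as Csf1r, Bhlhe41, Nr1d1, Spib, Xcr1, Batf3, Ctsk, Il6 and the E proteins, were chosen after their values were seen. Alternatives were other pseudocounts, filters, scalings, probe set choices and variance models, the replicate number as a block, and leaving out each array. Same-numbered arrays did not deviate together (correlation -0.132), so the fit has no block.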

Additional observations from a re-analysis of the deposited data

How the results depend on the processing

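Over 16 alternative settings Id2 stayed positive (0.47 to 1.04 on the log2 scale) and passed in 15, and Mitf stayed positive (0.04 to 0.61) and passed in 9. Small differences cannot be resolved with 4 arrays, and the cause of the shifts below was not tested. On the deposited scale 550 genes were higher and 722 lower, with 2 and 0 of the member genes, 3 and 0 of their probe sets, 6 and 4 family genes and 20 and 1 target genes.

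With no filter 356 genes and 1 member gene were higher. Under quantile normalization 2 target genes were lower, Cbfa2t2 was at 0.003 and 1452530_a_at at 0.0896. With array medians set equal 1044 genes, 6 member probe sets and 10 family genes were higher, and 67.35% of calls were upward, beside 43.24% as deposited. Bhlhe40 (1418025_at) was then at 0.0862, Cbfa2t2 at 0.13, 1452530_a_at at 0.0919 and 1452531_at at 0.11. On the macrophage-marker scale 125 genes were higher and 4520 lower (2.69% upward), as were 1 and 4 member genes, 2 and 20 family genes and 6 and 13 target genes, and 6 member probe sets were lower. Values turned negative there for Spi1 (1418747_at, -0.24), Irf8 (-0.27 for 1416714_at and -0.30 for 1448452_at), Irf5 (1460231_at, -0.34), Runx1 (-0.27 for 1422864_at and -0.17 for 1427650_a_at), Irf1 (-0.13), Maff (-0.21), Mafg (-0.21), Cbfb (-0.21), Tfeb (-0.18), Nr1d2 (-0.0392), Ccl5 (-0.0651), Acp5 (-0.11), C1qc (-0.15), Kdr (-0.38) and Gata2 (-0.39).

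With probe sets averaged per gene 1 member gene was higher, Irf5 was at -0.19 and Gata2 at -0.20. Without probe sets that may match several transcripts 1 member gene was higher, 0 target genes were lower and Ighm was at 0.84. With no variance trend 196 genes, 1 member gene, 3 family genes and 10 target genes were higher and 2 family genes lower.

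Leaving out each array in turn gave 308 to 467 genes higher, 501 to 689 lower, 1 to 2 member genes higher, and 3 to 5 family genes higher and 2 to 5 lower. Signs turned with the array left out for Bhlhe40 (1418025_at, -0.2849 to 0.1356), Cbfa2t2 (-0.0891 to 0.0261), Kdr (-0.2442 to 0.3094), Zap70 (-0.4611 to 0.0454), Gata2 (-0.0894 to 0.1213), 1452530_a_at (-0.191 to 0.053) and 1452531_at (-0.1461 to 0.0358). With the replicate number as a block 421 genes were higher and 634 lower, with 2 member genes higher. Crossing the numbers, chosen after seeing the data, gave 880 higher and 1095 lower, with 2 member genes higher.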
